A study of Mus musculus with 8 samples.

Results

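The genes described here build the actin and tubulin filaments of the cell and the myosin motors that run on actin. They were picked by a rule on gene symbols, with earlier results of these data known. The rule covers cytoplasmic actins, actin-related proteins and Arp2/3 subunits, alpha-actinins, filamins, cofilins, profilins, capping protein and tropomyosins. It also covers myosin heavy and light chains, unconventional myosins, and alpha, beta, gamma, delta and epsilon tubulins. Of 104 mouse genes whose RefSeq symbol fits this rule, 65 had a transcript cluster (all core probesets of a gene on the array) that carries this 1 symbol, out of 14860 genes measured in that way. Each of the 65 had 1 such cluster. The other 39 are not analysed here as single genes. They include Actg1, the second cytoplasmic actin, Actr2 and Actr3, the actin-like subunits of the Arp2/3 complex, the filamins, and Myl6 and Myl9, light chains of non-muscle myosin.

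The study measured RNA from B16F0 cells, a pigmented mouse melanoma line, and from exosomes, small membrane vesicles that these cells release. The cell group held 4 samples of parental B16F0 cells cultured for 24 h without serum, and the exosome group held 4 samples of vesicles from serum-free medium that such cells had conditioned for 24 h. No other treatment is given, and each sample was hybridised to 1 Affymetrix mouse exon array. Both groups come from 1 cell line. No label states that the samples were independent cultures, so p-values reflect the spread among these samples alone, which could be technical. The sources used here do not give the way the vesicles were isolated.

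Actin forms thin filaments that push the membrane forward, carry tension and serve as tracks for myosins. Branched networks are started by the Arp2/3 complex, and myosin II, a motor of heavy and light chains, pulls filaments past each other. Microtubules are hollow tubes of alpha and beta tubulin that start from gamma tubulin at the centrosome. In pigment cells, melanosomes travel along microtubules and are then held at the cell edge by myosin Va on actin.

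Values are the deposited log2 levels, and a change is the mean of the exosome arrays minus the mean of the cell arrays on that scale. The arrays differed in their overall scale. The 75th percentile of all transcript clusters ranged from 8.46 to 8.60 on the cell arrays and from 7.06 to 7.19 on the exosome arrays. The background threshold, the 95th percentile of 837 chemosensory receptor genes on the same array, ranged from 5.71 to 5.77 in cells and from 6.43 to 6.58 in exosomes. A gene counts as above background in a group when it exceeds this threshold on all 4 arrays. The 9 measured pigment cell markers were above background in both groups, so the defining markers of the labelled line were present. All 9 were lower in exosomes (limma adjusted p below 0.05). The mean level of this list was 12.02 to 12.11 in cells and 9.78 to 9.99 in exosomes. Levels are relative to the RNA on each array, so fewer vesicles with a transcript and less of it per vesicle cannot be told apart. Precision is limited by having 4 arrays in each group.

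Most cytoskeleton genes were lower in exosomes, and a few stood far apart in the opposite direction. Of the 65 genes, 42 fell and 6 rose (limma adjusted p below 0.05), where 52.1% of all genes fell and 14.6% rose, so that 64.6% of the cytoskeleton genes fell and 9.23% rose. A fall of at least 2-fold was found for 36 genes, or 55.4%, beside 37.8% of all genes, and a rise of at least 2-fold for 2, Arpc1a and Myo10, beside 2.58% of all genes. The median log2 change was -1.08, against -0.39 for all genes. Of the 65, 44 were above background in cells, 30 in exosomes and 30 in both (for all genes the shares were 61.6% in cells and 34.8% in exosomes, and 56.3% of those in cells passed in exosomes too), and 18 exceeded the threshold on no array. Among the 30 above background in both groups, 26 fell and 4 rose, or 86.7% and 13.3%, beside 77.8% and 11.3% of the 5153 such genes of the whole array, and their median change was -1.31 beside -1.16. Of these 30, 25 fell and 2 rose by at least 2-fold, beside 55.7% and 3.8%, and none had overlapping groups, where 89.3% of the 5153 had none. The groups did not overlap for 50 of the 65 genes, or 76.9%, beside 65.7% of all genes. The falls depend on the scale between arrays: after cyclic loess, which brings the median of all genes from -0.39 to 0.01, 28 of the 65 were called lower and 14 higher, beside 32.8% and 31.0% of all genes. After centring on background genes, which brings that median to -0.98, 60 were called lower and 2 higher, beside 82.4% and 2.46% of all genes. The folds given below are those of the deposited scale.

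**Figure D1:**
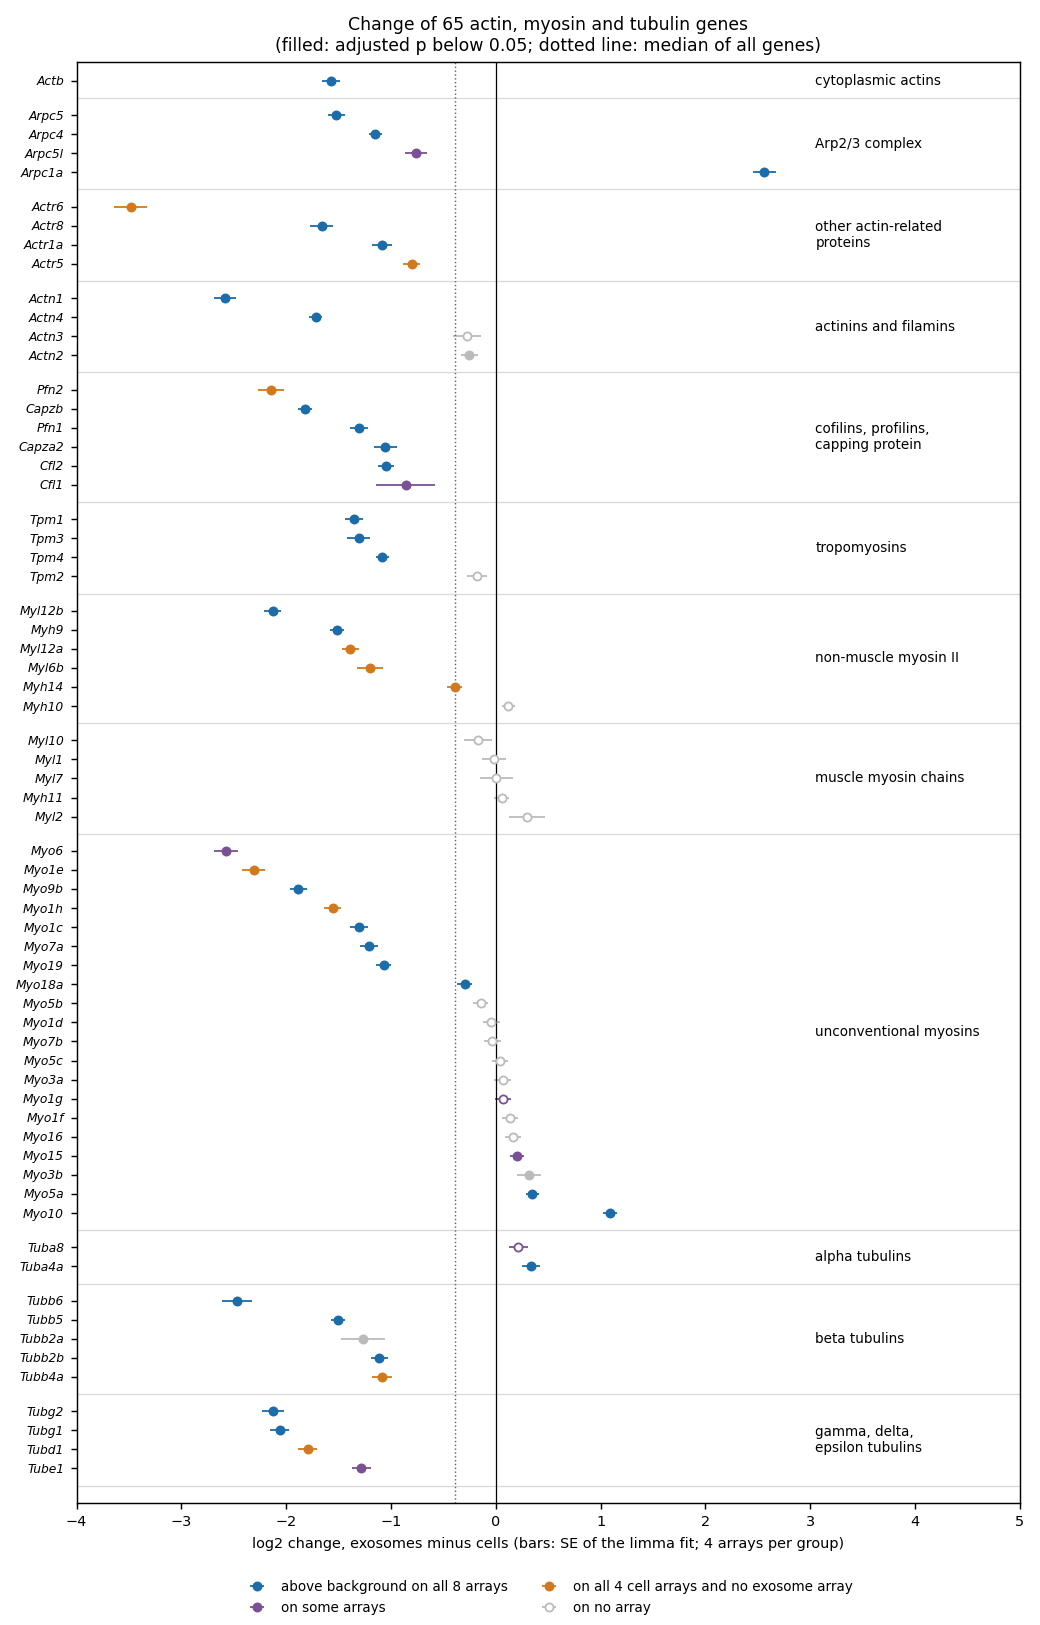
Log2 change between exosomes and cells (horizontal axis) for each of the 65 genes, grouped by role, with bars for the standard error of the limma fit (4 arrays per group). Filled points have an adjusted p below 0.05, colours give where a gene was above background, and the dotted line is the median of all genes (-0.39). Arpc1a (2.56) and Myo10 (1.09) lie far to the right of the other genes, and Actr6 (-3.48), at background in exosomes, farthest to the left.

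Actb, which encodes cytoplasmic beta-actin, read 13.69, 13.48, 13.69 and 13.51 on the cell arrays and between 11.95 and 12.17 on the exosome arrays. All exosome values lay below all cell values, a fall of 2.97-fold (log2 change -1.57 ± 0.086 SE, n = 4 arrays per group, adjusted p = 5.29e-07). Near-identical copies of actin sequence exist elsewhere in the genome, so that part of this signal may come from related transcripts. This share was not measured. Another cluster, which carries the symbols Lrrc58 and Actb, was above background on all arrays of both groups. It fell less, from a mean of 9.89 in cells to 9.47 in exosomes (log2 change -0.42, limma adjusted p = 0.00164). How much of that signal came from Actb was not measured.

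The 4 subunits of the Arp2/3 complex measured as single genes split. Arpc1a, the large WD-repeat subunit, read 8.89, 8.43, 8.74 and 8.76 in cells and 11.17, 11.20, 11.33 and 11.36 in exosomes. It rose 5.91-fold (log2 change 2.56 ± 0.11 SE, n = 4 per group, adjusted p = 1.41e-07), and only 27 of the 5153 genes above background in both groups had a higher change. Arpc5, a small subunit at the core of the complex, read 12.08, 12.19, 12.05 and 12.22 in cells and 10.58, 10.62, 10.74 and 10.51 in exosomes, a fall of 2.87-fold (-1.52 ± 0.078, adjusted p = 3.65e-07). Arpc4, which joins the scaffold of the complex, fell 2.22-fold (-1.15 ± 0.063, from 10.51 to 10.63 in cells and from 9.39 to 9.47 in exosomes), but its change was 0.10 after cyclic loess. Arpc5l, a paralog of Arpc5, fell too (-0.76 ± 0.11), with 2 of 4 exosome arrays above background, so no fold is given. Its change turned to 0.40 after quantile normalization and 0.43 after cyclic loess. On each array the level of Arpc1a was set against the mean of the other 3 subunits. That difference was between -1.60 and -1.17 on the cell arrays and between 2.23 and 2.44 on the exosome arrays, a shift of 3.71 that is given as a description, since Arpc1a was singled out after its values were seen. A cluster that carries the symbols Arpc1b, a paralog of Arpc1a, and Gm5637 was above background on all arrays of both groups. Its mean was 11.31 in cells and 11.23 in exosomes, and it did not pass (log2 change -0.08, limma adjusted p = 0.431). How much of that signal came from Arpc1b was not measured.

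The other actin-related proteins, most of which work in the nucleus, all fell as deposited. Actr6, a subunit of a chromatin remodelling complex that exchanges histones, read 7.68, 7.73, 7.76 and 7.75 in cells and 4.17, 3.82, 4.38 and 4.61 in exosomes, where it was above background on no array, so that it was at least 2.34-fold lower (adjusted p = 1.75e-07). Actr8, of the INO80 chromatin remodelling complex, fell 3.17-fold (-1.66 ± 0.11), but its change was -0.28 after quantile normalization, and -0.22 after cyclic loess did not pass (adjusted p = 0.068). Actr5, of the same complex, was above background on no exosome array and at least 1.42-fold lower, and its change was 0.05 after quantile normalization and 0.09 after cyclic loess. Actr1a, which forms the actin-like filament of dynactin, fell 2.13-fold (-1.09 ± 0.095), but its change was 0.04 after quantile normalization and 0.27 after cyclic loess.

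Among the crosslinkers, Actn1 and Actn4, the alpha-actinins of non-muscle cells, both fell. Actn1 read 9.78, 9.52, 9.71 and 9.69 in cells and 6.90, 6.96, 7.24 and 7.26 in exosomes, a fall of 6.00-fold (-2.59 ± 0.11, adjusted p = 1.32e-07). Of the genes above background in both groups, 340 had a lower change than Actn1, and no cytoskeleton gene did. Actn4 read between 11.83 and 11.95 in cells and between 10.12 and 10.24 in exosomes, a fall of 3.29-fold (-1.72 ± 0.066). The muscle isoforms Actn2 and Actn3 were above background on no array, and their changes were -0.25 and -0.27. Actn2 passed the test (adjusted p = 0.0293), but not without 1 of 5 arrays in turn (cells 1 or 3, exosomes 2, 3 or 4).

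The proteins that bind actin monomers, sever filaments or cap their ends fell too. Pfn1, the main profilin, which loads actin monomers onto growing ends, read 13.25, 13.05, 13.16 and 13.00 in cells and 11.66, 11.93, 11.81 and 11.84 in exosomes, a fall of 2.47-fold (-1.31 ± 0.089). Pfn2, the profilin best known from neurons, was above background throughout the cell arrays but never in exosomes, at least 2.06-fold lower (means 7.54 and 5.40). Capzb, the beta subunit of capping protein, fell 3.53-fold (-1.82 ± 0.067). Its partner Capza2 fell 2.08-fold (-1.05 ± 0.11), and Cfl2, a cofilin that severs filaments, fell 2.06-fold (-1.04 ± 0.077), but after cyclic loess their changes were 0.07 and 0.09. Cfl1, the most widely expressed cofilin, read only 6.54, 5.69, 6.52 and 5.90 in cells, with 3 of 4 arrays above background, and 4.83, 5.87, 5.03 and 5.49 in exosomes with none. Its cell mean of 6.16 lay below the mean exosome threshold, which gives no fold. Its groups overlapped, and its call (-0.86 ± 0.28, adjusted p = 0.0279) was lost without cells 1, cells 3, exosomes 1 or exosomes 3, with the replicate number as a block (adjusted p = 0.0884), after quantile normalization (0.116) and after cyclic loess (0.0921).

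Tropomyosins lie along actin filaments and set which proteins may bind. Tpm1 read 11.84, 11.85, 11.86 and 11.88 in cells and 10.34, 10.51, 10.48 and 10.69 in exosomes, a fall of 2.55-fold (-1.35 ± 0.084). Tpm4 fell 2.12-fold (-1.08 ± 0.066), but its change of -0.05 after cyclic loess did not pass (adjusted p = 0.576). Tpm3 fell 2.48-fold (-1.31 ± 0.11), but its change was 0.08 after quantile normalization and 0.14 after cyclic loess. Tpm2 was above background on no array, with a change of -0.18 that did not pass the test.

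Non-muscle myosin II, the contractile motor of the cell cortex, fell in 5 of its 6 measured chains. Myl12b, a regulatory light chain, read 12.51, 12.47, 12.67 and 12.63 in cells and 10.41, 10.45, 10.58 and 10.33 in exosomes. It fell 4.38-fold (-2.13 ± 0.083, adjusted p = 9.27e-08). Myh9, the heavy chain IIA, read between 9.81 and 9.92 in cells and between 8.30 and 8.43 in exosomes, a fall of 2.86-fold (-1.52 ± 0.066), but after cyclic loess its change of -0.12 did not pass (adjusted p = 0.153). Myl12a, Myl6b and Myh14 were above background throughout the cell arrays but never in exosomes, at least 2.18-fold, 1.61-fold and 1.2-fold lower, and of these Myh14, the heavy chain IIC, turned to 0.49 after quantile normalization and 0.47 after cyclic loess. Myh10, the heavy chain IIB, was above background on no array and did not pass the test (0.12 ± 0.064).

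The muscle myosin chains served as a check on background. Myh11, of smooth muscle, and the light chains Myl1, Myl2, Myl7 and Myl10 were above background on no array. None passed the test as deposited, with changes from -0.17 to 0.29. After centring on background genes, Myh11 (-0.54), Myl1 (-0.61), Myl7 (-0.59) and Myl10 (-0.76) were called lower, as were 82.4% of all genes. Myl10 was also called lower after cyclic loess (-0.35). Of 9 measured striated muscle markers, 5 exceeded the threshold on all cell arrays (Ckm, Acta1, Tnnt3, Tnnt2 and Des). The mean level of this marker list was 5.98 to 6.12 in cells and 5.84 to 5.97 in exosomes.

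The unconventional myosins, single motors that carry cargo or link membranes to actin, ran in both directions. Of 20 measured genes, 8 fell, 4 rose and 8 did not pass the test, where 52.1% of all genes fell and 14.6% rose. Of the 20, 10 were above background in cells. Myo10, which moves to the tips of filopodia, read 11.07, 10.92, 10.97 and 10.96 in cells and 11.98, 12.10, 12.09 and 12.11 in exosomes. It rose 2.12-fold (1.09 ± 0.069, n = 4 per group, adjusted p = 1.26e-06), and every exosome value lay above every cell value. Myo5a, the motor that holds melanosomes at the cell edge, read 11.25, 11.23, 11.22 and 11.20 in cells and 11.53, 11.51, 11.62 and 11.63 in exosomes. It rose 1.28-fold (0.35 ± 0.064, adjusted p = 0.00132), but its change was -0.24 when arrays were centred on background genes. The other 2 that rose, Myo15 and Myo3b, were at background: neither was above it on all arrays of a group, and their changes of 0.21 and 0.32 turned to -0.39 and -0.28 after that centring. The call of Myo15 was lost without any 1 of cells 1, 3 or 4 or exosomes 2, and that of Myo3b without any 1 of the cell arrays or exosomes 1 or 2.

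Myo6, which moves toward the pointed end of actin and serves in endocytosis, read 9.23, 9.09, 9.15 and 9.19 in cells and 6.55, 6.31, 6.68 and 6.81 in exosomes, where 3 of 4 arrays were above background, a fall of 5.96-fold (-2.58 ± 0.11, adjusted p = 1.45e-07). Myo1e, a membrane-linked myosin of endocytosis, was above background on no exosome array and at least 3.18-fold lower, and Myo1h in the same way at least 1.34-fold lower. Myo9b, an unconventional myosin of class IX, fell 3.69-fold (-1.88 ± 0.083). Myo1c, a membrane-linked myosin, Myo7a, known from hair cells and pigment epithelium, and Myo19, which moves mitochondria, fell 2.47-fold, 2.32-fold and 2.10-fold, but after cyclic loess their changes were 0.09, 0.07 and 0.40. Myo18a, a Golgi-linked myosin, read 7.74, 7.60, 7.62 and 7.59 in cells and 7.25, 7.39, 7.31 and 7.41 in exosomes. Its fall of 1.23-fold (-0.30 ± 0.071, adjusted p = 0.00661) was the smallest of those above background in both groups, and it became a rise of 0.99 after quantile normalization and 1.08 after cyclic loess. The remaining myosins (Myo5b, Myo1d, Myo7b, Myo5c, Myo3a, Myo1g, Myo1f and Myo16) had changes from -0.15 to 0.16 that did not pass the test, and none was above background on all arrays of a group.

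**Figure D2:**
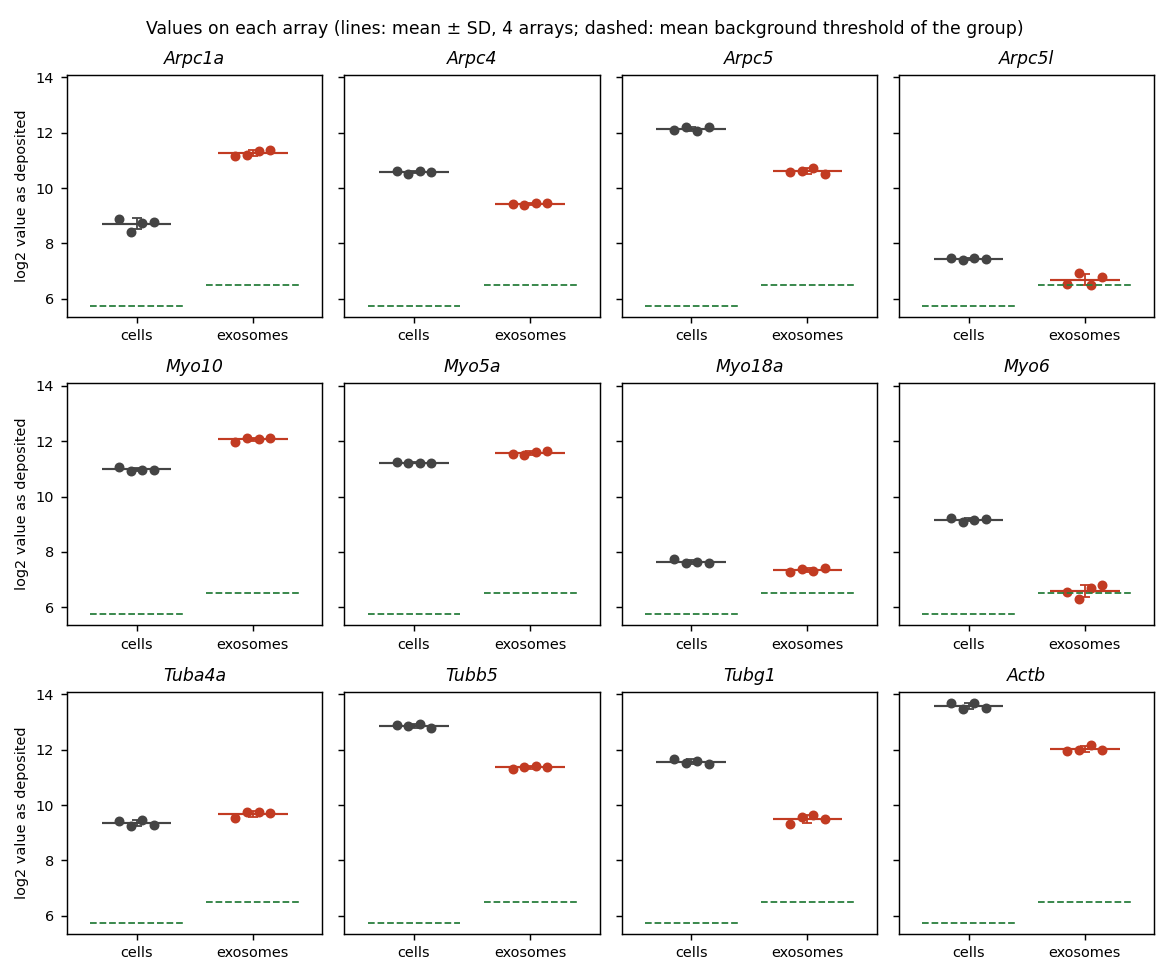
Deposited log2 values (vertical axis) of 12 genes on each of the 4 cell and 4 exosome arrays, with mean and SD, and the mean background threshold of each group as a dashed line. Arpc1a, Myo10, Myo5a and Tuba4a are higher on all exosome arrays and the other 8 genes are lower as deposited (under other scalings Myo5a, Tuba4a, Arpc4, Arpc5l and Myo18a change direction), and Arpc5l and Myo6 lie at the threshold in exosomes.

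Among tubulins measured as single genes, the classes differed as deposited. Of the clusters with several symbols, that of Tuba1a, Tuba1c and Gm5620 was above background on all 8 arrays. It fell from 12.87 to 11.65 (-1.22, limma adjusted p = 1.21e-06). The other clusters with an alpha tubulin symbol were above background on no exosome array, with changes from -0.06 to 0.72. Tuba4a, an alpha tubulin whose encoded tail lacks the final tyrosine of most alpha tubulins, read 9.42, 9.25, 9.46 and 9.27 in cells and 9.53, 9.75, 9.74 and 9.71 in exosomes. It rose 1.26-fold (0.33 ± 0.085, adjusted p = 0.00856), but its change was -0.26 when arrays were centred on background genes. Tuba8, the other alpha tubulin measured as a single gene, did not pass the test (0.22 ± 0.091), and 1 of 4 exosome arrays was above background. It was called higher after quantile normalization (0.91, adjusted p = 0.000162), after cyclic loess (0.84, 4.81e-05), with dim genes left out (0.0367) and without exosomes 1 (0.0298), and its change was -0.38 after centring on background genes. All 5 beta tubulins fell as deposited. Tubb5, a main beta tubulin of dividing cells, read 12.91, 12.86, 12.94 and 12.78 in cells and 11.29, 11.39, 11.41 and 11.37 in exosomes, a fall of 2.84-fold (-1.51 ± 0.068). Tubb6 fell most, by 5.53-fold (-2.47 ± 0.14), from 9.85 ± 0.146 (SD, n = 4) in cells to 7.15, 7.69, 7.53 and 7.16 in exosomes. Tubb2b fell 2.16-fold (-1.11 ± 0.083), but its change was 0.21 after quantile normalization and 0.34 after cyclic loess. Tubb4a was above background throughout the cell arrays but never in exosomes (means 6.26 and 5.17), which gives no fold, since its cell mean lay below the exosome threshold. Tubb2a was above background on no array, so that its change of -1.27 lies within dim signals. Tubulin genes are alike in sequence, and the sources used here do not give the treatment of probes shared between copies.

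Gamma tubulin starts microtubules, and both of its genes fell. Tubg1 read 11.68, 11.52, 11.59 and 11.47 in cells and 9.30, 9.56, 9.66 and 9.49 in exosomes, a fall of 4.18-fold (-2.06 ± 0.094). Tubg2 fell 4.37-fold (-2.13 ± 0.11). Of the tubulins of centrioles, Tubd1 (delta) was above background on no exosome array and at least 2.07-fold lower, and Tube1 (epsilon) fell 2.44-fold (-1.29 ± 0.091) with 3 of 4 exosome arrays above background, but its changes of -0.05 after quantile normalization and -0.01 after cyclic loess did not pass (adjusted p = 0.756 and 0.934).

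A difference between a pair of genes on 1 array is not touched by a shift of that whole array, so pairs of paralogs or related motors were compared on each array. Of 31 pairs chosen, 16 had both genes measured, and 12 of the 16 differed between groups (exact permutation test, two-sided, p = 0.0286, the smallest that 4 arrays against 4 allow, Benjamini-Hochberg adjusted p = 0.0381 over 16 pairs). Such a separation was common: the groups did not overlap for 72.8% of all pairs of genes, and for 83.2% of pairs of genes above background in both groups. Of the 6 chosen pairs with both genes above background on all arrays, 4 differed, so the counts do not set the chosen pairs apart, and their sizes are given as measurements. Actn1 minus Actn4 went from -2.22 ± 0.085 in cells to -3.08 ± 0.15 in exosomes (SD, n = 4 each, exact permutation adjusted p = 0.0381), so that Actn1 fell 1.82-fold further. That shift of -0.87 was -0.33 after quantile normalization and -0.43 after cyclic loess. Myo18a minus Myh9 went from -2.25 ± 0.065 to -1.03 ± 0.032, so that Myh9 fell 2.33-fold further. Tubb5 minus Tubb6 went from 3.02 ± 0.077 to 3.99 ± 0.24, a difference that did not pass after quantile normalization (0.26, adjusted p = 0.122) or cyclic loess (0.26, 0.13). Tpm3 minus Tpm4 moved by -0.23, and by 0.42 after quantile normalization and 0.19 after cyclic loess. Tubg1 minus Tubg2 moved by 0.06 and did not pass (exact permutation adjusted p = 0.427), but moved by -0.44 after quantile normalization and by -0.26 after cyclic loess, where it passed (adjusted p = 0.0352 and 0.0458).

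The widest shift was that of Myo10 minus Myo6, from 1.82 ± 0.033 in cells to 5.48 ± 0.21 in exosomes (SD, n = 4 each, exact permutation adjusted p = 0.0381). It amounts to 3.66 on the log2 scale, with Myo6 near its background threshold in exosomes. Myo1c minus Myo1e moved by 1.00, Pfn1 minus Pfn2 by 0.84 and Myl12a minus Myl12b by 0.74, with 1 gene of each pair not above background in exosomes. Arpc5 minus Arpc5l moved by -0.76. In Myh9 minus Myh10 (-1.64), Tpm1 minus Tpm2 (-1.17) and Myo5a minus Myo5b (0.50) the second gene was above background on no array, so these shifts show the first gene against background. After cyclic loess, Myh9 minus Myh10 (-0.16) and Tpm1 minus Tpm2 (-0.09) no longer passed. Tpm1 minus Tpm4 (-0.27, adjusted p = 0.0703), Tubb5 minus Tubb2a (-0.24, 0.427) and Cfl1 minus Cfl2 (0.19, 0.571) did not pass the exact permutation test.

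**Figure D3:**
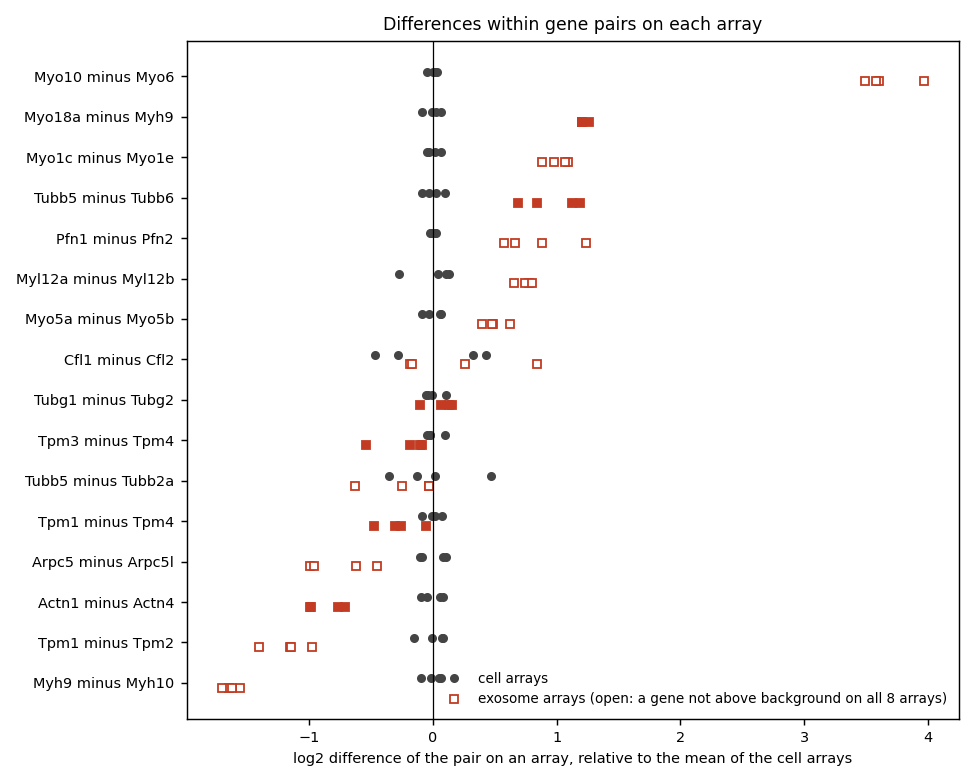
Log2 difference between the genes of 16 pairs on each array, shown relative to the mean of the cell arrays (horizontal axis), with circles for cell arrays and squares for exosome arrays, open where a gene was not above background on all 8 arrays. The squares of Myo10 minus Myo6 lie farthest to the right (mean 3.66) and those of Myh9 minus Myh10 farthest to the left (mean -1.64).

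How many of these directions rest on the scale between arrays was counted over 4 scalings: as deposited, quantile normalization, cyclic loess and centring on background genes. The median change of the 65 genes was -1.08, -0.22, -0.15 and -1.67 in that order, and that of all genes was -0.39, 0.03, 0.01 and -0.98. Of the called cytoskeleton genes, 12.5%, 29.5%, 33.3% and 3.23% were higher. Of all genes, called or not, 14.6%, 30.1%, 31.0% and 2.46% were called higher and 52.1%, 33.4%, 32.8% and 82.4% lower. In all 4 scalings 24 cytoskeleton genes were called lower and 2 higher, and the same count over all genes was not made. The 2 were Arpc1a, with changes from 1.97 to 3.82, and Myo10, from 0.50 to 1.99. The 24 held Actb, Actn1, Actn2, Actn4, Actr6, Arpc5, Capzb, both profilins, Tpm1, the light chains Myl12a, Myl12b and Myl6b, the myosins Myo1e, Myo1h, Myo6 and Myo9b, the beta tubulins Tubb2a, Tubb4a, Tubb5 and Tubb6, and Tubd1, Tubg1 and Tubg2. Of these 24, Actn2 and Tubb2a were above background on no array, and Actr6, Myl12a, Myl6b, Myo1e, Myo1h, Pfn2, Tubb4a and Tubd1 on no exosome array, and the call of Actn2 was lost in 5 of the fits that leave out 1 array.

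**Figure D4:**
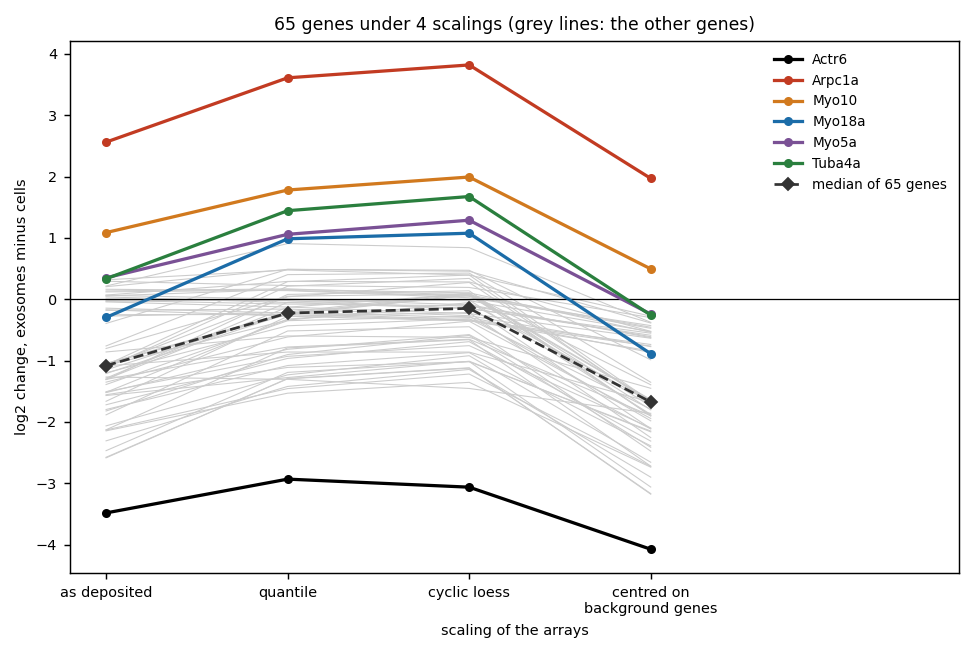
Log2 change (vertical axis) of each of the 65 genes under 4 scalings of the arrays (horizontal axis), with 6 genes in colour or black, the others in grey and their common median as diamonds. Arpc1a and Myo10 stay above 0 throughout, Myo5a and Tuba4a drop to -0.24 and -0.26 after centring on background genes, and Myo18a crosses from -0.30 to 1.08.

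The upstream sequences of the 2 genes that rose in each scaling and of Actr6 and Actn1, which fell in each, show what lies before their start sites. The 250 bases before the RefSeq start (GRCm38.p6) are given from 5′ to 3′ on the gene's strand for Arpc1a (chr5:145083619-145083868, plus strand), Myo10 (chr15:25622300-25622549, plus strand, the first of 2 starts in the table), Actr6 (chr10:89732296-89732545, minus strand, the first of 2) and Actn1 (chr12:80260364-80260613, minus strand). Capitals mark 3 motifs, on either strand and with overlaps counted. The first is the GC box, spelled GGGCGG, which general promoter factors bind. The next is the CCAAT box, whose name is its spelling. The last is the M box, known from promoters of pigment genes and searched here as TCATGTG. The CArG box, the site of serum response factor, was searched as well.
Arpc1a: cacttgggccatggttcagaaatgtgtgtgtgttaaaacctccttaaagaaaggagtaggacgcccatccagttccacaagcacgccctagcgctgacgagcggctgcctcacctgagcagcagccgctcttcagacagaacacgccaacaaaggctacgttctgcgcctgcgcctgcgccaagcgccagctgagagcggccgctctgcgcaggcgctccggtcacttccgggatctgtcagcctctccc
Myo10: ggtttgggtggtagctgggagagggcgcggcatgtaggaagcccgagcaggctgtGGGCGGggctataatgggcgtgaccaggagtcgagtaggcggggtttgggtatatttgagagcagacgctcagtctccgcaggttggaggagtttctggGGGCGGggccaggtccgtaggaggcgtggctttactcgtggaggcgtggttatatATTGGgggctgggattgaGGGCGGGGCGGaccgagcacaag
Actr6: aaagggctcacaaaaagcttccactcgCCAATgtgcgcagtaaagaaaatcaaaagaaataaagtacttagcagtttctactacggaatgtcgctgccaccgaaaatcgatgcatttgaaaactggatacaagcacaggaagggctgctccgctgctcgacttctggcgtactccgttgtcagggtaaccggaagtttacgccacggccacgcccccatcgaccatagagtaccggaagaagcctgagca
Actn1: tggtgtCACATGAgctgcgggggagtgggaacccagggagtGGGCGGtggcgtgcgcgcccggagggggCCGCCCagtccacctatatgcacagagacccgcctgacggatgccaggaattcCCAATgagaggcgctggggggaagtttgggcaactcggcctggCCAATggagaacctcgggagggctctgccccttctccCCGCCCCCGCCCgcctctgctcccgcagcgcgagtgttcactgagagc
The window of Arpc1a held none of these motifs and had 60.8% G and C, while that of Myo10 held 4 GC boxes and 1 CCAAT box at 62.8%. The window of Actr6 held 1 CCAAT box at 50% G and C, and that of Actn1 held 4 GC boxes, 2 CCAAT boxes and 1 M box at 68.4%. Of the 65 genes, 53 matched the RefSeq promoter table, with 64 windows of 300 bases (250 before and 50 after the start). Actb was not among the 53, so its promoter was not searched for any of these motifs. A CArG box was found in 3 of the 64 windows (4.69%), those of Arpc4, Myl7 and Myo1e, beside 1.63% of all 32851 windows. GC boxes were found in 62.5% of the windows beside 35.7%, CCAAT boxes in 34.4% beside 37.4%, and M boxes in 3.12%, those of Actn1 and Myo7a, beside 3.77%. A match is a description of the letters and does not show binding.

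Most genes that work with these filaments fell as well, as counted in 8 lists. Of 147 different genes measured, 118 fell and 9 rose, with a median change of -1.28, where 52.1% of all genes fell and 14.6% rose. Of the 147, 128 were above background in cells and 93 in both groups. Among all genes above background in both groups, 77.8% fell and 11.3% rose, with a median of -1.16, so falls are not particular to these lists. The 118 falls are over all 147 genes, and falls among the 93 alone were not counted, so these sets are not alike. The 147 genes gave 69 falls and 43 rises after cyclic loess, where 32.8% of all genes fell and 31.0% rose. After centring on background genes they gave 137 falls and 4 rises, where these shares were 82.4% and 2.46%. Genes named from these lists were chosen after their values were seen, as the largest fall of each list and all that rose. Among 23 genes of tubulin folding, tubulin modification and the gamma-tubulin ring, 21 fell and 2 rose (median -1.78). Tbce, a tubulin folding cofactor, went from 8.39 ± 0.055 to 4.99 ± 0.12 (SD, n = 4 each) and was above background on no exosome array. Ttl, which puts the final tyrosine back on alpha tubulin, rose 3.92-fold (1.97 ± 0.075 SE, adjusted p = 8.26e-08), and Ttll4, which adds glutamate to tubulin, rose 1.89-fold (0.92 ± 0.079), in each scaling.

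Of 17 microtubule-associated proteins, 14 fell and 1 rose (median -1.43). Tpx2, a spindle assembly factor, fell 6.86-fold, and Mapre1, which tracks growing microtubule ends, rose 2.01-fold (1.01 ± 0.088), both in each scaling. Of 16 dynein and dynactin genes, 13 fell and 1 rose (median -1.83). Dync1i2, an intermediate chain of dynein, fell 10.5-fold with 3 of 4 exosome arrays above background, and Dynll2, a light chain shared with myosin Va, rose 2.21-fold (1.14 ± 0.081), both in each scaling.

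Of 22 actin nucleators and activators, 15 fell and 1 rose (median -1.07). The formin Diaph2 went from 7.26 ± 0.089 to 4.84 ± 0.21 (SD, n = 4 each), above background on no exosome array. Wasf2, which activates the Arp2/3 complex, rose 1.24-fold (adjusted p = 0.0321), but its change was -0.28 after centring on background genes, and its call was lost without any 1 of cells 2, 3 or 4 or exosomes 2, 3 or 4. Of 23 genes of actin turnover, 19 fell and 1 rose (median -0.90). Cap1, which recycles actin monomers, fell 5.41-fold, and Ssh1, a cofilin phosphatase, rose 1.53-fold, with a change of 0.02 after that centring. Of 23 bundling and membrane-linking genes, 19 fell and 1 rose (median -1.44). Pls3, an actin bundler, went from 9.56 ± 0.064 to 5.91 ± 0.13, above background on no exosome array, and Nf2, which encodes merlin, rose 1.34-fold, with -0.17 after centring.

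Of 11 intermediate filament, lamin and septin genes, 8 fell and 1 rose (median -0.92). Septin7, the core septin, went from 10.5 ± 0.064 to 6.46 ± 0.31 (SD, n = 4 each) with 2 of 4 exosome arrays above background, so no fold is given, and Nes, which encodes nestin, rose 1.26-fold, with -0.26 after centring. Of 14 genes around serum response factor, the activator of many actin genes, 11 fell and 1 rose (median -0.95). The 1 that rose was Srf itself, by 1.67-fold (0.74 ± 0.074, adjusted p = 2.77e-05), with a change of 0.15 after centring that did not pass. Ccn1, a secreted target of this factor, went from 9.71 ± 0.077 to 6.21 ± 0.37 (SD, n = 4 each) with 1 of 4 exosome arrays above background, so no fold is given.

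A further 14 transcript clusters carry several gene symbols, of which at least 1 fits the rule. Apart from those described above, they are given by count only. Of all 14, 5 fell, 3 rose and 6 did not pass the test, where 52.1% of all genes fell and 14.6% rose. The 3 that rose were above background on no array. With the 14 clusters, the count became 47 lower and 9 higher in all.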

How the data were processed

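The deposited log2 values were made by the authors with Affymetrix Expression Console and RMA and the genome build mm8, per the submitters' processing notes. Per the series text, core probesets of a gene were averaged. The sources used here give no versions. Arrays of 8 samples, 4 per group, gave 23332 transcript clusters with values from 0.65 to 14.1. Of these, 14996 had 1 gene symbol in the platform table given with the data, 1019 had several and 7317 were unnamed here. No arrays held identical values.

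The members and lists were chosen with earlier results of these data known. For a gene with several clusters, the one with the highest mean over all arrays was used. Groups were compared with limma (version 3.58.1, R 4.3.3; lmFit, eBayes, two-sided, Benjamini-Hochberg over all clusters, adjusted p below 0.05, no filter on dim signals, no block). Chemosensory receptor genes gave the background, and a gene above it on no exosome array is given as a bound, the cell mean against the mean exosome threshold. Pairs were tested with exact permutation tests in scipy 1.17.1. The fit was tested on simulated data. Plots used matplotlib 3.10.9 (Python 3.11.15). Named genes were, per role, the largest fall and the smallest fall or largest rise, all rises, the 10 largest falls, pair members and genes on no exosome array. Other members are named to account for each. A related gene list is not reported here. Alternatives were other scalings, filters, priors, weights, thresholds, background rules, the replicate number as a block and leaving out each array.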

Additional observations from a re-analysis of the deposited data

Results flagged for a closer look

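In 5 of 164 groups of 4 arrays (82 genes, 2 groups each), 1 array stood apart from the other 3 by more than Dixon's 95% critical value, which chance alone gives in about 1 in 20 groups. Actr1a read 8.61 on exosome array 1, against 8.90 to 8.94 on the others. Myo7a read 9.11 on the same array, against 9.32 to 9.35. Myo1d, above background on no array, read 4.40 on exosome array 3, against 4.54 to 4.56. Myo1h read 7.07 on cell array 1, against 6.86 to 6.89, and Pls3 read 9.66 on the same array, against 9.52 to 9.54.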

How the results depend on the processing

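Leaving out 1 array at a time gave 40 to 42 cytoskeleton genes called lower and 4 to 6 called higher, and 113 to 116 and 8 to 9 genes of the related lists. The calls of 4 cytoskeleton genes were lost in some of these fits (Actn2, Cfl1, Myo15 and Myo3b). With fewer than 4 arrays in a group, the exact test of a pair cannot go below p = 0.0571, so pairs are then given as values only. Of these, Cfl1 minus Cfl2 ranged from -0.03 to 0.33. Signs also changed, with no call, for Myl1 (-0.10 to 0.04), Myl7 (-0.13 to 0.09), Myo1d (-0.07 to 0.01), Myo7b (-0.09 to 0.02) and Myo5c (0.00 to 0.07). With array weights, Myl1 was at 0.00 and Myl7 at -0.03. No label states that replicate numbers pair the samples. Same-numbered arrays of the groups had deviation correlations from -0.055 to 0.0013, which cannot show whether they shared a culture. With the replicate number as a block, 40 genes were called lower and 4 higher, and 112 and 7 of the related lists.

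After quantile normalization, 31 cytoskeleton genes were called lower and 13 higher, and 76 of the related genes lower and 39 higher. Of all genes, 33.4% were then lower and 30.1% higher. After cyclic loess these numbers were 28, 14, 69 and 43, beside 32.8% and 31.0% of all genes. After centring on background genes, 2 cytoskeleton genes and 4 related genes were higher, with 60 and 137 lower, beside 2.46% and 82.4% of all genes. As deposited, 2 cytoskeleton rises and 3 rises of the related lists reached 2-fold. The causes of these moves between scalings were not tested. After quantile normalization, log2 changes turned to 0.04 (Actr1a), 0.05 (Actr5), 0.40 (Arpc5l), 0.49 (Myh14), -0.02 (Myl7), 0.99 (Myo18a), 0.29 (Myo19), -0.05 (Myo5c), 0.00 (Myo7b), 0.08 (Tpm3) and 0.21 (Tubb2b). After cyclic loess they turned to 0.27 (Actr1a), 0.09 (Actr5), 0.10 (Arpc4), 0.43 (Arpc5l), 0.07 (Capza2), 0.09 (Cfl2), 0.47 (Myh14), -0.15 (Myl7), 1.08 (Myo18a), 0.40 (Myo19), 0.09 (Myo1c), -0.02 (Myo3a), -0.15 (Myo5c), 0.07 (Myo7a), 0.14 (Tpm3) and 0.34 (Tubb2b). After centring they turned to -0.47 (Myh10), -0.54 (Myh11), -0.30 (Myl2), -0.59 (Myl7), -0.39 (Myo15), -0.43 (Myo16), -0.46 (Myo1f), -0.52 (Myo1g), -0.53 (Myo3a), -0.28 (Myo3b), -0.24 (Myo5a), -0.55 (Myo5c), -0.26 (Tuba4a), -0.38 (Tuba8), -0.26 (Nes), -0.17 (Nf2) and -0.28 (Wasf2). Pair differences turned to -0.37 and -0.71 (Cfl1 minus Cfl2), 0.42 and 0.19 (Tpm3 minus Tpm4), 0.38 and 0.70 (Tubb5 minus Tubb2a) and -0.44 and -0.26 (Tubg1 minus Tubg2) after quantile normalization and cyclic loess. Some genes at background that were not called as deposited passed under another scaling. These were Actn3, Myh10, Myh11, Myl1, Myl7, Myl10, Myo16, Myo1d, Myo1f, Myo1g, Myo3a, Myo5b, Myo5c, Myo7b and Tpm2. Levels near background in exosomes limit all folds given as bounds.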
